A study of Homo sapiens with 24 samples.

Results

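Estradiol raised the accessibility of 307 chromatin sites that were low in hormone-deprived T47D cells, and these sites are described here across media and under 3 receptor antagonists. They were chosen from 189403 peaks by their values. Levels are in CPM, a peak's count over its library's total count on a common scale. The mean had to be under 3 in the starved vehicle libraries, called closed here, and at least 4 in the starved estradiol libraries. The log2 ratio of the means, each with 0.5 CPM added, had to be at least 1, and every one of the 4 estradiol libraries had to lie above every one of the 4 starved vehicle libraries. Levels and differences between those 2 groups therefore only describe how the sites were chosen. Another 232 peaks met the same rule except that the starved vehicle mean was 3 CPM or more, and these are called the sites already open.

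The assay was ATAC-seq, in which a transposase inserts adapters into open chromatin. T47D is an established luminal breast cancer line that carries the estrogen receptor, and it is the single model used, with 6 groups of 4 libraries. In 2 groups the cells spent 3 days in phenol-red-free medium with charcoal-stripped serum (starved) and then received 0.1% DMSO or 1 nM estradiol for 1 h. In the other 4 groups the cells spent 1 day in complete medium and then received 0.1% DMSO, or fulvestrant, raloxifene or tamoxifen at 100 nM, for 1 h. The labels name no transgene or deletion. Medium, days in medium and seeding density differed together between the starved and complete-medium groups and cannot be told apart. All antagonists were tested in complete medium without added estradiol. The labels do not say that replicates were separate cultures, and every p-value here covers only how much libraries of a group varied, which may be technical.

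The estrogen receptor alpha is a nuclear receptor. Bound by estradiol it attaches to DNA at estrogen response elements, inverted repeats of a short motif, often at distal enhancers, and recruits coactivators that open and acetylate chromatin. Raloxifene and tamoxifen are selective modulators that compete with estradiol for the same pocket, and fulvestrant is a full antagonist that also leads to degradation of the receptor. In luminal breast cells the response includes GREB1 and TFF1, widely used markers of receptor activity.

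Totals ran from 434598 to 12140005 counts per library. Fulvestrant replicate 4 was the shallowest, with 1 count worth 2.30 CPM, a median of 2 counts per site and 89 of the 307 sites at 0. Starved vehicle replicate 3 was the second shallowest at 2422981 counts. Replicates 3 and 4 of the complete-medium vehicle have a treatment label naming fulvestrant, while their title and description name DMSO; they were kept as vehicle and each result was also computed without them. Peaks covered the promoters of 11 of 13 luminal identity genes with a promoter window (ESR1 at 19.6 CPM, FOXA1 at 30.1 CPM and GATA3 at 39.6 CPM in the complete-medium vehicle). TFAP2B and ELF5 lacked one. Of 10 basal and mesenchymal genes 3 had such a peak (FN1 at 6.96, ZEB1 at 5.79 and ZEB2 at 2.66 CPM). KRT5, TP63 and VIM were among those lacking one. Of 5 blood cell genes 2 did have one (CD14 at 6.80 and CD8A at 14.6 CPM), with PTPRC among those lacking one.

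Among the 307 sites, 2 overlapped a RefSeq promoter window (GRCh38.p14, from 250 bases before to 50 after a start). Both overlaps are printed because they are the only site sequences that could be read here. They are written on the minus strand, the strand of the transcript, with capitals marking GGTCA, the motif repeated in an estrogen response element, or its reverse complement.

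LINC01588, chr14:49993085-49993233: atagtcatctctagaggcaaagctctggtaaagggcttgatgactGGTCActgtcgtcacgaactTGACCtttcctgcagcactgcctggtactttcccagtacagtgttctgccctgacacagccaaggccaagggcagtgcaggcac

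LOC107986054, chr3:182699939-182700167: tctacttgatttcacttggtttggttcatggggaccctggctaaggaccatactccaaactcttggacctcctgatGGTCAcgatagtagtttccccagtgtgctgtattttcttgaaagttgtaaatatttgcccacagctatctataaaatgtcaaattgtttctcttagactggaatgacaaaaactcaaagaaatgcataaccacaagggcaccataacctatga

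The overlap at LINC01588, a long noncoding RNA gene, held 2 such motifs. The overlap at LOC107986054, an uncharacterised RNA gene, held 1. Of all 35116 RefSeq promoter windows cut to 149 or 229 bases, the 2 overlap lengths, 20.6% and 30.6% held GGTCA on either strand. Neither overlap held the full element GGTCANNNTGACC, which 0.0569% of whole 300-base windows held. On both strands, the forkhead motif TGTTTAC was not in these letters, which 3.42% of whole windows held. The AP-1 motif TGANTCA (7.71% of whole windows) was not found either. Nor were the GATA factor motif AGATAA (10.3%) or the steroid receptor motif ACANNNTGT (5.37%). A match of letters is a description and not a binding site.

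The LOC107986054 site had the second largest estradiol ratio of all 307. It covers chr3:182699836-182700167, and its nearest coding gene is ATP11B, a phospholipid flippase, 93.5 kb away. Its starved vehicle libraries gave 1.22, 1.67, 1.24 and 1.68 CPM and its estradiol libraries 13.5, 13.3, 12.4 and 11.8 CPM. In complete medium the vehicle libraries gave 14.5, 17.8, 12.9 and 12.4 CPM. The estradiol and complete-medium levels overlapped, and both lay far above the starved level.

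The LINC01588 site (chr14:49992998-49993233) has ARF6, a small GTPase gene, as its nearest coding gene. It gave 1.78, 4.88, 0.825 and 0.882 CPM in the starved vehicle and 9.95, 6.18, 7.17 and 9.70 CPM with estradiol. Starved vehicle replicate 2 lay closest to the estradiol libraries. The complete-medium vehicle gave 9.56, 6.43, 6.65 and 5.76 CPM, within the range of the estradiol libraries or just below it.

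The sites were mostly distal. Distances were taken to the starts of protein-coding genes, so the noncoding starts of LINC01588 and LOC107986054 do not enter them. Of 299 sites with such a distance (starts on chromosome 8 were not used here), 1 lay within 1 kb of a coding gene's RefSeq start, at PHACTR1, against 8.33% of all peaks. The median distance was 60.8 kb, against 46.9 kb for all peaks and 61.1 kb for the sites already open. The share inside a coding gene was 47.2% (145 sites), close to the 47.7% of all peaks, and whether a site is exonic or intronic was not assigned. Median width was 268 bp against 226 bp for all peaks and 257 bp for the sites already open, on a peak set 200 to 958 bp wide. These position and width features did not enter the rule, but wider peaks hold more counts.

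Some sites lay near each other. Of the 307, 30 had another within 50 kb, in 13 groups, and 42 (13.7%) lay within 50 kb of a site already open, against 1.68% of all peaks. The largest group was 5 sites over 33.2 kb at GPR132, a G protein-coupled receptor gene, from chr14:105041893 to 105075113. A group of 3 spanned 48.8 kb beside TRPC6, a cation channel gene, from chr11:101389698 to 101438470. The nearest of these 3 lay 260 kb from PGR, the progesterone receptor gene.

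Summed over all 307 sites, the starved vehicle libraries gave 566, 585, 482 and 570 CPM (550.8 ± 46.3, SD, n = 4). The estradiol libraries gave 1935, 2104, 2039 and 1978 CPM (2014 ± 73.7, SD, n = 4), which is 3.66 times the starved vehicle mean. The complete-medium vehicle libraries, which the rule did not use, gave 2140, 2127, 1882 and 1897 CPM (2011 ± 141, SD, n = 4). So the summed level in complete medium was 1.00 times that after 1 h of estradiol, and no library of either group came near the starved vehicle. A change in counts cannot tell more cells with the site open from more opening per cell.

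**Figure D1:**
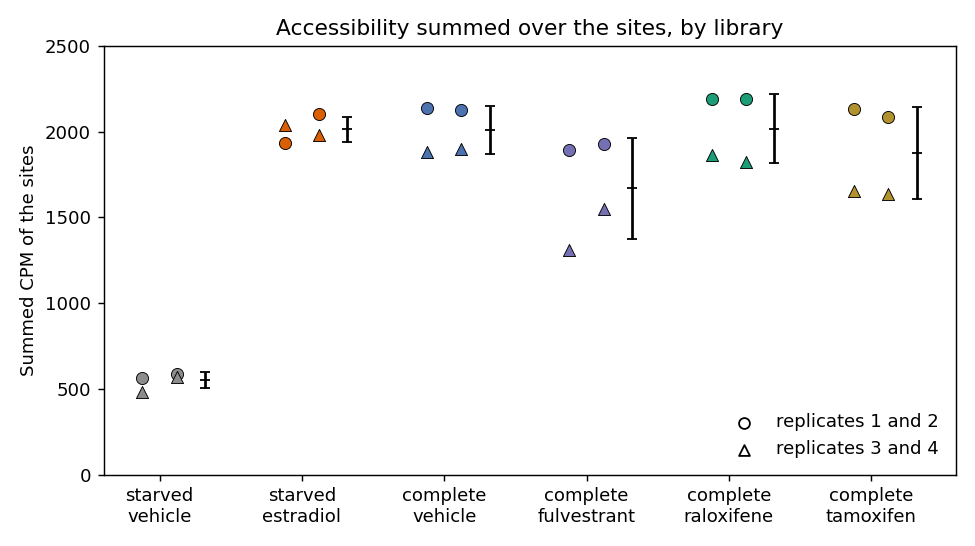
Summed CPM of the 307 sites (y axis, linear from 0) in each library by group (x axis). Circles are replicates 1 and 2, triangles replicates 3 and 4, and bars the mean ± SD of 4 libraries; starved vehicle libraries sit between 482 and 585, and replicates 3 and 4 sit below 1 and 2 in all 4 complete-medium groups.

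The sum hid a wide spread between sites. The median site had a mean of 1.79 CPM in the starved vehicle, 6.01 CPM with estradiol and 5.36 CPM in the complete-medium vehicle. Over all 189403 peaks the starved vehicle median was 1.98 CPM, and 62.3% averaged under 3 CPM there. The sites were thus at the level of a common peak before estradiol, and no background level was measured. In complete medium 214 sites (69.7%) averaged at least 4 CPM, 36 averaged 3 to 4 and 57 (18.6%) stayed under 3. Among the 117953 peaks with a starved vehicle mean under 3 CPM, 2.16% averaged at least 4 CPM in the complete-medium vehicle. The comparison shares the starved vehicle libraries with the rule, which picked sites low in them, so it is a description and no support.

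**Figure D2:**
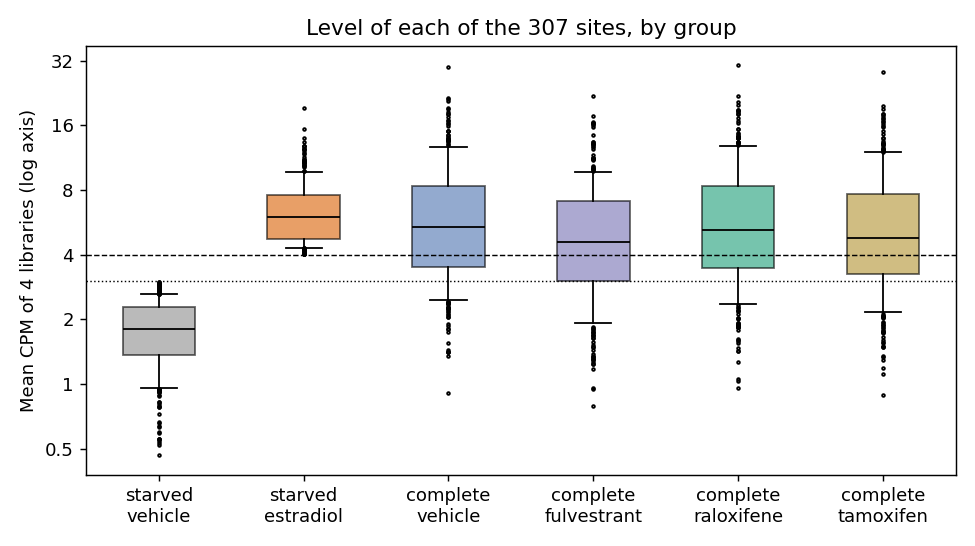
Mean CPM of 4 libraries (y axis, log) for the 307 sites in each group (x axis). Boxes run from the 25th to the 75th percentile with the median as a line, whiskers run from the 10th to the 90th percentile, dots are sites beyond, and the dotted and dashed lines mark 3 and 4 CPM; the median is 1.79 in the starved vehicle and between 4.59 and 6.01 in the other 5 groups.

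By edgeR's quasi-likelihood test, with Benjamini-Hochberg adjustment over 156745 tested peaks, the rule's own contrast called 296 of the 307 sites higher and 0 lower with estradiol, where 0.813% of all tested peaks were higher and 0.0223% lower. All 307 passed the filter on low counts. Between the complete-medium and starved vehicles 245 of the 307 sites were higher and 0 lower, where 7.93% of tested peaks were higher and 9.91% lower. In 237 sites all 4 complete-medium vehicle libraries exceeded all 4 starved ones, against 8.03% of tested peaks. At an unadjusted edgeR p under 0.05 the lower count was also 0, against 15.4% of tested peaks, and DESeq2 called 239 sites higher and 0 lower, against 5.44% and 7.77%. Without complete-medium vehicle replicate 3, 1 site, at CHRNA9, was called lower (edgeR adjusted p 0.0469). Of the 232 sites already open, 210 (90.5%) were called higher by edgeR and 209 (90.1%) had separate libraries. The rule picked sites low in the starved vehicle, the reference here, so all counts between the vehicles are a description and no support.

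Of 38 estrogen-induced genes in the list used, 9 had a site within 50 kb (ADCY9, GREB1, IGFBP4, KCNK5, NHERF1, SIAH2, TFF1, TGIF2 and THSD4). That is 10 of the 866 tested peaks near the list (1.15%), against 0.196% of all tested peaks. The sites already open made up 20 of these 866 peaks. All 10 sites were called higher in the complete-medium than in the starved vehicle, with a median log2 difference of 2.05. Of all 307 sites 79.8% were called so, and of all tested peaks 7.93%. The rule picked these sites low in the starved vehicle, so that count is no support. The list was chosen with results of these data known, and its count is given as a description.

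The site inside GREB1 (chr2:11532540-11532845), an early receptor target involved in hormone-driven growth, gave 1.33, 1.43, 2.89 and 1.06 CPM in the starved vehicle. Estradiol gave 9.59, 12.1, 11.3 and 10.1 CPM. The complete-medium vehicle gave 20.6, 21.7, 16 and 11.9 CPM. Of these 4 libraries 3 exceeded every estradiol library, and the edgeR difference between these 2 groups was 0.71 on the log2 scale (SE 0.23, adjusted p 0.0322).

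The site inside THSD4 (chr15:71104647-71104989), an extracellular matrix protein gene with thrombospondin repeats, had the largest estradiol ratio and the highest level with estradiol of all 307. Its values were 1.89, 2.86, 1.24 and 2.73 CPM in the starved vehicle and 22.2, 19.1, 19.5 and 15.9 CPM with estradiol. In the complete-medium vehicle it gave 16.5, 14.4, 12.8 and 11.7 CPM. Here 3 of the 4 libraries lay below every estradiol library, but the edgeR difference of -0.46 did not pass (SE 0.21, adjusted p 0.151).

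SIAH2 encodes an E3 ubiquitin ligase, and its site (chr3:150737355-150737628) lay 3.63 kb from the gene. Starved vehicle libraries gave 2.44, 2.98, 2.06 and 1.85 CPM, estradiol libraries 10.3, 10.9, 9.56 and 10.8 CPM, and complete-medium vehicle libraries 8.53, 6.31, 6.65 and 7.02 CPM. The 3 groups did not overlap. Complete medium stood between the others, lower than estradiol by edgeR (log2 difference -0.52, SE 0.16, adjusted p 0.0178).

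TFF1, a secreted trefoil peptide gene, had a site 10.0 kb away inside the neighbouring TMPRSS3 (chr21:42376394-42376761). Its mean was 1.79 CPM in the starved vehicle, 6.5 CPM with estradiol and 7.31 CPM in the complete-medium vehicle. Means of the 2 sites near NHERF1, a scaffold protein gene, were 9.02 and 7.09 CPM in the complete-medium vehicle, against 5.73 and 5.70 CPM with estradiol. KCNK5, a potassium channel gene, had 8.29 against 6.63 CPM and ADCY9, an adenylate cyclase gene, 4.07 against 4.13 CPM.

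Other lists held few sites. Among 22 luminal identity genes 1 had a site, GRHL2, a luminal transcription factor gene on chromosome 8, at 2.89 CPM in the starved vehicle, 12.4 with estradiol and 11.1 in the complete-medium vehicle. Among 26 growth factor and PI3-kinase genes 3 did. IGF1R, the type 1 insulin-like growth factor receptor, had a site (chr15:98749246-98749535) at 1.24, 4.83 and 6.62 CPM in the same order. IGFBP4, a binding protein for such factors, had a site 6.19 kb away (chr17:40463636-40464200) at 2.00, 7.12 and 7.87 CPM, which was also the only site within 50 kb of a cell cycle gene, TOP2A.

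INPP4B, a phosphoinositide phosphatase gene, had a site (chr4:142408327-142408533) at 1.27 CPM in the starved vehicle and 5.57 with estradiol, but only 2.35 in the complete-medium vehicle. Its log2 difference between the vehicles, 0.68, did not pass (SE 0.37, adjusted p 0.217 by edgeR). That value was unstable, at 0.091 within replicates 1 and 2 and 2.34 within replicates 3 and 4, where it passed (adjusted p 0.0206). It was 1.25 without starved vehicle replicate 1, where it also passed (adjusted p 0.047), and 0.24 without starved vehicle replicate 4. Near FKBP5, a steroid receptor cochaperone gene and a glucocorticoid target, 1 site (chr6:35775072-35775343, beside CLPSL2) had 2.85, 6.49 and 11.6 CPM. Lists of coactivator and corepressor genes (405 tested peaks), basal and mesenchymal genes, blood cell genes and housekeeping genes held 0 of the sites.

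The ratio of the complete-medium vehicle mean to the estradiol mean ran from 0.198 to 3.85 over sites, with a median of 0.839. In 114 sites complete medium was higher, in 19 by at least 2 times, and in 36 it was at most 0.5 of the estradiol mean. By edgeR 44 sites were higher and 89 lower in the complete-medium vehicle than with estradiol, where 7.24% of tested peaks were higher and 9.39% lower. Without the 2 vehicle libraries with conflicting labels the counts were 33 and 38, against 3.94% and 4.69% of the peaks tested in that fit. By DESeq2 they were 34 and 50, against 4.54% and 6.91%. This comparison shares the estradiol libraries with the rule, which picked sites high in them, so it too is a description.

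**Figure D3:**
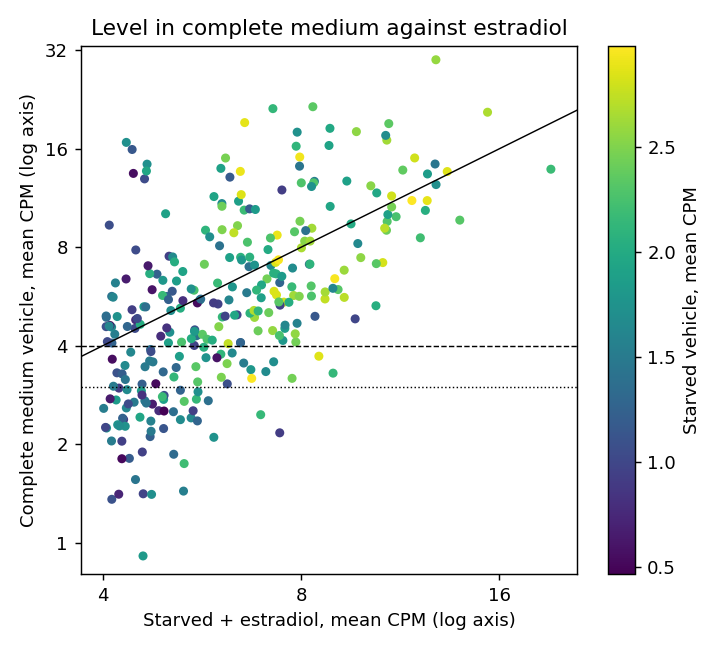
Mean CPM in the complete-medium vehicle (y axis, log) against mean CPM with estradiol (x axis, log) for each of the 307 sites, coloured by the starved vehicle mean. The solid line marks equal levels, and the dotted and dashed lines 3 and 4 CPM; 114 sites lie above the solid line and 57 below the dotted line.

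At the upper end, the site 65.0 kb from MAP1LC3B2 (chr12:116494308-116494515), a gene of the LC3 autophagy family, was the highest of all in complete medium. Its vehicle libraries gave 33.7, 30.5, 28.5 and 27.1 CPM there, its estradiol libraries 11.9, 12.1, 15 and 12.3 CPM and its starved vehicle libraries 3.00, 1.31, 4.54 and 1.50 CPM. The groups were fully separate, and complete medium exceeded estradiol by a log2 difference of 1.22 (SE 0.22, edgeR adjusted p 0.0004). The next highest sites lay near BOD1 (21.5 against 8.33 CPM with estradiol), PPP1R26 (21.2 against 7.25), TBL1XR1, a corepressor subunit gene (20.7 against 15.4), and KCTD3 (19.2 against 6.57).

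At the lower end the site 12.3 kb from CHRNA9 (chr4:40322846-40323141), a nicotinic receptor subunit gene, was the lowest in complete medium. The vehicle libraries there gave 0.312, 1.29, 1.76 and 0.281 CPM, overlapping the 0.777, 1.67, 2.48 and 2.38 CPM of the starved vehicle. Estradiol libraries gave 4.44, 4.64, 3.54 and 5.79 CPM, above every library of both vehicles. The log2 difference between the vehicles was -0.85 (SE 0.44, edgeR adjusted p 0.186).

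The other 4 of the 5 lowest sites in complete medium lay 651 kb from GATA3 (1.36 CPM against 1.10 in the starved vehicle), inside FUT8, a fucosyltransferase gene (1.40 against 1.71), inside GPR132 (1.41 against 0.723) and inside DDX10, an RNA helicase gene (1.41 against 0.977). With estradiol these 4 averaged 4.13, 4.74, 4.23 and 4.60 CPM. None of the 4 passed the edgeR test between the vehicles, with adjusted p values from 0.27 for DDX10 to 0.986 for GATA3. The fitted difference at GPR132 (log2 0.72, SE 0.63) and at DDX10 (0.78, SE 0.47) was above 0 in every alternative run. Those runs reuse the same libraries, and the rule picked sites low in the starved vehicle, so agreeing signs are no support. A missed test also does not place these 2 at the starved level.

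For the 5 sites at GPR132 together, the summed level was 10.1, 11.1, 4.54 and 6.0 CPM in the starved vehicle and 26.6, 32.7, 19.9 and 18.6 CPM with estradiol. In the complete-medium vehicle it was 11.9, 14.3, 8.12 and 11.4 CPM, which overlaps the starved vehicle and stays below every estradiol library. None of the 5 passed edgeR's test between the vehicles, their log2 differences lying between 0.23 and 0.72. The group at TRPC6 differed, its complete-medium libraries lying within the estradiol range, with 5.33, 4.52, 5.78 and 5.03 CPM in the starved vehicle, 17, 19.4, 29.6 and 28.1 CPM with estradiol and 24.1, 23, 20.2 and 24 CPM in complete medium. These groups of neighbouring sites were singled out after their values were seen, and sites in a group are not independent.

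The 57 sites under 3 CPM in complete medium did not differ much in setting from the 214 at 4 CPM or more. Median distance to a start site was 60.7 against 57.0 kb, median width 263 against 269 bp and the share inside a coding gene 47.4% against 46.7%. Their median level with estradiol was lower, 4.63 against 6.74 CPM, and so was their starved level, 1.44 against 1.96 CPM. Across the 307 sites Spearman's rho between the complete-medium and estradiol means was 0.60, a description over sites that share libraries and depth.

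Among the other sites with the largest estradiol ratios, the one inside PTGER3, a prostaglandin E2 receptor gene (chr1:70915420-70915718), went from 0.540 to 5.56 CPM with estradiol and had 5.40 CPM in complete medium. The sites inside ATXN7L1 (12.8 with estradiol, 12.4 CPM in complete medium) and 13.2 kb from TRPC6 (12.4 and 13.4) were likewise level. Those near RHOBTB1 (9.66 and 4.83), inside ARHGEF26 (5.96 and 3.67) and near KCTD15 (4.95 and 2.52) were lower in complete medium, each passing edgeR's test (adjusted p 6.96e-05, 0.0321 and 0.00725). The site beside MAG, a myelin glycoprotein gene, had 7.48 CPM with estradiol and 12 in complete medium (adjusted p 0.0665). All these sites were named for large ratios in the same estradiol libraries, so lower values elsewhere are favoured and these tests are a description.

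High levels with estradiol were also seen inside PRKCE, a protein kinase C gene (13.9 CPM, 9.68 in complete medium), and 84.4 kb from FHL2, a LIM domain protein gene (13.3 and 13.6 CPM). Sites just inside the limits of the rule were the one in SNX24, with a starved vehicle mean of 2.98 CPM, in MAPKAPK2, with an estradiol mean of 4.01 CPM, and in CELSR1, with a log2 ratio of 1.00. Just outside lay sites in MYB (3.01 CPM in the starved vehicle), near LAMP5 (3.98 CPM with estradiol) and in NYAP2 (log2 ratio 0.999814).

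The antagonist comparisons are independent of the rule, but all 3 use the same 4 complete-medium vehicle libraries, so they are not independent of each other. After 1 h of fulvestrant the summed level of the sites was 1892, 1929, 1308 and 1551 CPM (1670 ± 295, SD, n = 4), or 0.830 times the vehicle mean. With raloxifene it was 2191, 2189, 1862 and 1825 CPM (1.00 times), and with tamoxifen 2133, 2085, 1653 and 1634 CPM (0.933 times). Fulvestrant and tamoxifen each had libraries within the range of the vehicle libraries. Raloxifene libraries lay above that range in replicates 1 and 2 and below it in replicates 3 and 4. No antagonist library fell to the starved level.

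Replicates 3 and 4 lay below 1 and 2 in all 4 complete-medium groups, so the ratio was also taken within those pairs. For fulvestrant it was 0.896 in replicates 1 and 2 and 0.757 in replicates 3 and 4. The second pair holds the shallow library, but its lower sum, 1308 CPM, came from replicate 3 with 5448411 counts. The median over all peaks was 2.20 CPM in replicate 3, against 1.86 to 2.06 CPM in the vehicle libraries, and what it reflects was not tested. In replicate 4 that median was 2.30 CPM, which is just 1 count there, so it cannot be compared with the others. For tamoxifen the ratio within the pairs was 0.989 and 0.870, and for raloxifene 1.03 and 0.976. The labels give no batch for these pairs, and what sets them apart was not tested.

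Of the 307 sites, edgeR called 0 higher and 0 lower with fulvestrant, where 0.0% of tested peaks were called in either direction. At an unadjusted p under 0.05, 55 sites were lower (17.9%) and 3 higher, against 2.03% and 1.93% of tested peaks. DESeq2 also called 0. In 23 sites all 4 fulvestrant libraries lay below all 4 vehicle libraries, against 1.39% of tested peaks, and 233 sites (75.9%) had a log2 difference below 0, against 51.5%. The median log2 difference of the sites was -0.19 and that of all tested peaks -0.01.

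The sites already open had nearly the same median, -0.20, so the shift was not seen only at sites that had been closed. Among those 232 peaks 63 were lower at an unadjusted p under 0.05 (27.2%) and 41 had separate libraries. Without the 2 vehicle libraries with conflicting labels the median was -0.28 for the 307 sites and -0.25 for the sites already open. Without fulvestrant replicate 3 the median of the 307 sites was -0.10, without the shallow replicate 4 it was -0.17, and without replicate 1 it was -0.29. Within replicates 1 and 2 it was -0.15 and within replicates 3 and 4 -0.64.

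With tamoxifen 0 sites were called, where 0.0% of tested peaks were, and DESeq2 called 0. At an unadjusted p under 0.05, 18 sites were lower and 1 higher, against 2.2% and 1.93% of tested peaks. The median log2 difference was -0.09 and 205 sites (66.8%) lay below 0, against 49.6% of tested peaks and 72.8% of the sites already open. This median rested on the second pair of replicates, being -0.01 within replicates 1 and 2 and -0.23 within replicates 3 and 4. Without the 2 vehicle libraries with conflicting labels it was -0.16.

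Raloxifene called 1 site higher, at TGIF2, and 0 lower, where 0.000638% of tested peaks were higher and 0.0% lower. At an unadjusted p under 0.05, 17 sites were higher and 12 lower, against 1.66% and 2.15% of tested peaks. The median log2 difference was 0.01, or -0.04 without the 2 vehicle libraries with conflicting labels. Its sign turned under several alternatives, so no direction was shown for the sites as a set. DESeq2 called 0.

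**Figure D4:**
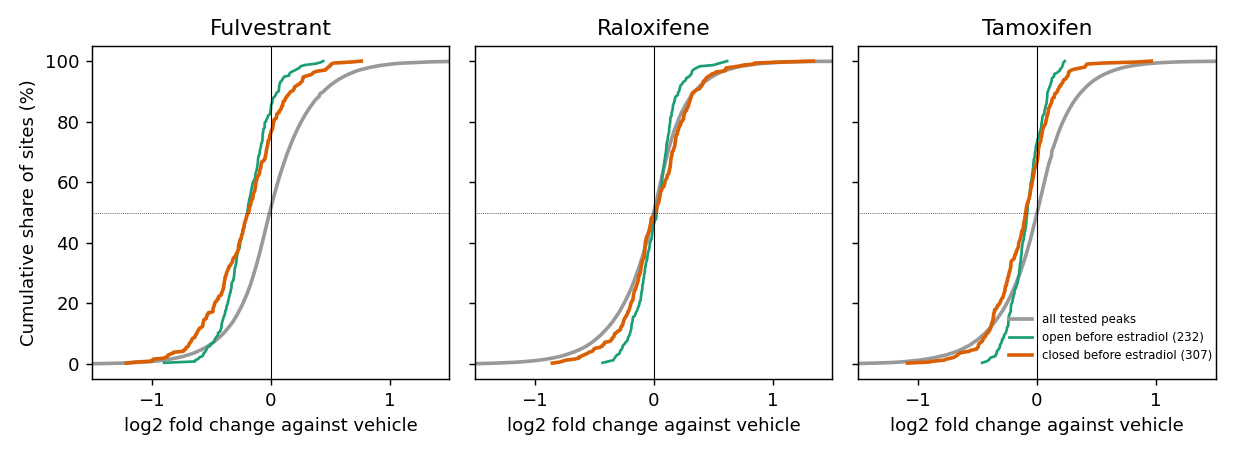
Cumulative share of sites (y axis, percent) by log2 fold change against the complete-medium vehicle (x axis) for fulvestrant, raloxifene and tamoxifen. Orange is the 307 sites closed before estradiol, green the 232 sites already open and grey all 156745 tested peaks; under fulvestrant the 2 coloured lines cross 50% at -0.19 and -0.20, left of all peaks at -0.01.

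Compared with each other, the antagonists gave median log2 differences over the sites of -0.21 for fulvestrant against raloxifene, -0.09 for fulvestrant against tamoxifen and 0.13 for raloxifene against tamoxifen. The middle 80% of sites ran from -0.66 to 0.20, from -0.50 to 0.29 and from -0.18 to 0.45. In these 3 comparisons edgeR called 0 of the 307 sites in either direction, where 0.000638% of tested peaks were lower with fulvestrant than with raloxifene and 0.0% were called otherwise. At an unadjusted p under 0.05, 70 sites were lower with fulvestrant than with raloxifene (22.8%, against 2.66% of tested peaks) and 28 lower than with tamoxifen (9.12%, against 2.69%). Another 23 were higher with raloxifene than with tamoxifen (7.49%, against 1.85%). Among the 232 sites already open these were 67 (28.9%), 32 (13.8%) and 18 (7.76%), so the differences were not seen only at sites that had been closed. The misses do not show that the compounds act alike. Fulvestrant is a steroid, a derivative of estradiol with a long side chain, whereas raloxifene and tamoxifen are nonsteroidal.

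Some sites left the open range under an antagonist. Of the 214 that averaged at least 4 CPM in the vehicle, 13 (6.07%) averaged under 3 CPM with fulvestrant. That compares with 1.64% of all such peaks and 0.862% of the sites already open. Without the shallow replicate 4 there were 9 (4.21%), against 0.437% and 0%. With raloxifene and with tamoxifen there was 1 each (0.467%), against 0.375% and 0.441% of all such peaks. The peaks compared were not matched for vehicle level, so nearness to a limit was not accounted for. Sites also crossed the other way. Of the 57 that averaged under 3 CPM in the vehicle, 10 (17.5%) averaged at least 4 CPM with fulvestrant, against 4.52% of all such peaks. Without the shallow replicate 4 there was 1 (1.75%), against 0.310%. There were 3 with raloxifene (5.26%) and 1 with tamoxifen (1.75%), against 0.0967% and 0.153%. These peaks were not matched for vehicle level either.

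The smallest p with fulvestrant was at the site 304 kb from SOX5, a transcription factor gene (chr12:23225839-23226076). Its vehicle libraries gave 10.3, 7.98, 9.78 and 8.01 CPM and its fulvestrant libraries 6.13, 3.51, 3.85 and 0 CPM, the last being the shallow replicate 4. Raloxifene gave 8.71, 9.5, 7.14 and 7.72 CPM and tamoxifen 8.80, 8.92, 7.34 and 6.99 CPM. All 4 fulvestrant libraries lay below all libraries of these 3 groups, with a log2 difference to the vehicle of -0.996 (SE 0.22, unadjusted edgeR p 1.59e-05) that did not pass adjustment.

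GREB1 and THSD4 also had low fulvestrant values. At GREB1 the fulvestrant libraries gave 10.4, 12, 6.42 and 0 CPM, raloxifene 18.2, 17.8, 12.2 and 13.1 CPM and tamoxifen 16.9, 19.8, 9.88 and 9.12 CPM. Fulvestrant replicate 2 lay just above the lowest vehicle library, and the log2 difference was -0.87 (SE 0.26), which did not pass edgeR's adjusted test. THSD4 gave 9.94, 8.18, 3.12 and 11.5 CPM with fulvestrant, its highest value coming from the shallow library, and the log2 difference of -0.85 (SE 0.28) did not pass either.

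With the pair of replicates (1 and 2, or 3 and 4) as a term in the edgeR fit, 3 sites passed as lower with fulvestrant, against 0.00255% of tested peaks. These were GREB1 (log2 difference -1.02, adjusted p 7.37e-05), THSD4 (-0.99, adjusted p 0.00521) and SOX5 (-1.05, adjusted p 0.0346). Within replicates 1 and 2 alone GREB1 passed (-0.91, adjusted p 0.0304), and within replicates 3 and 4 alone it did not (-1.42, adjusted p 0.0743).

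**Figure D5:**
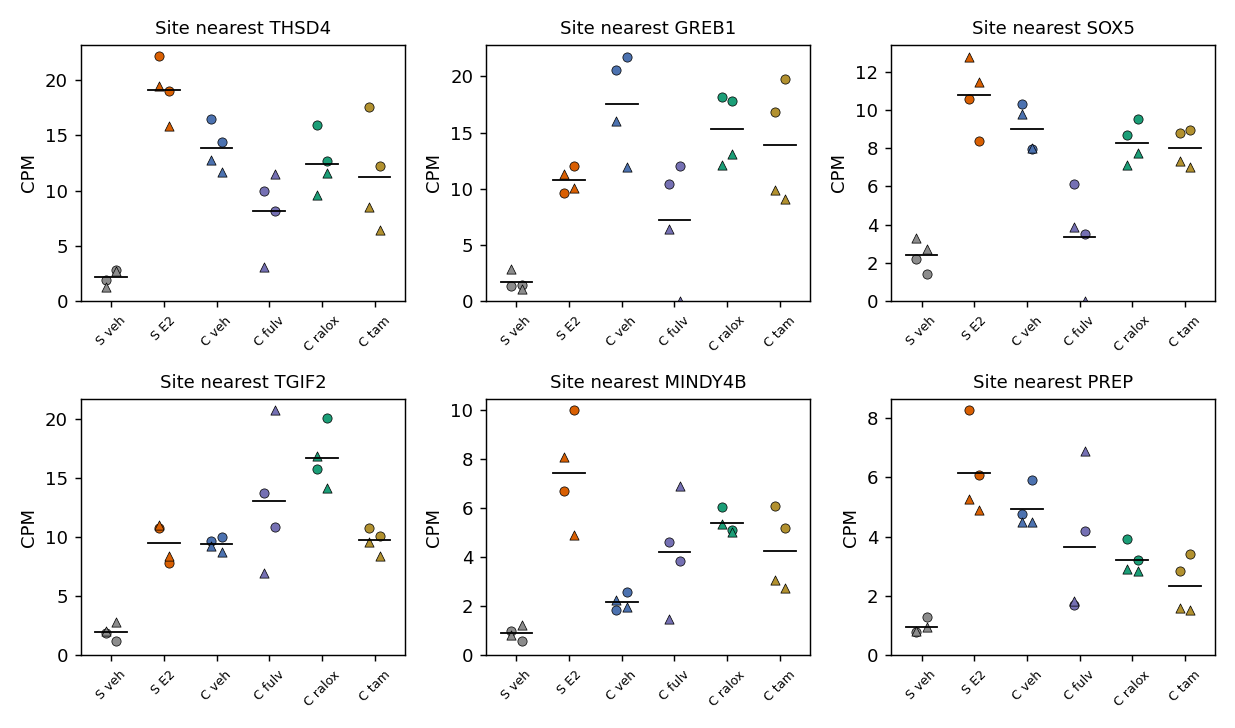
CPM (y axis, linear from 0, own scale per panel) of 6 sites in every library of the starved vehicle (S veh), starved estradiol (S E2) and complete-medium vehicle, fulvestrant, raloxifene and tamoxifen groups (C veh, C fulv, C ralox, C tam). Circles are replicates 1 and 2, triangles replicates 3 and 4, and lines group means; GREB1 and SOX5 are lowest under fulvestrant among the complete-medium groups, and TGIF2 is highest under raloxifene.

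Next in order with fulvestrant were the sites 35.5 kb from NPSR1, a neuropeptide S receptor gene (5.49 CPM in the vehicle, 2.89 with fulvestrant), and inside MICU2, a regulator of mitochondrial calcium uptake (6.40 and 3.78 CPM). Their log2 differences were -1.14 and -0.86. Both had intermediate means with raloxifene, 3.99 and 4.37 CPM. The IGF1R site averaged 3.01 CPM with fulvestrant against 6.62 in the vehicle (log2 difference -0.66, unadjusted edgeR p 0.0085), while the SIAH2 site showed no fitted difference (log2 difference 0.00, SE 0.19). Fulvestrant means give the shallow replicate 4 the same weight as the other libraries, whereas the fitted differences weigh libraries by depth.

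TGIF2 encodes a homeobox repressor, and the site inside it (chr20:36587377-36587616) was the one raised by raloxifene. Its vehicle libraries gave 9.67, 10.0, 9.29 and 8.71 CPM and its raloxifene libraries 15.8, 20.1, 16.8 and 14.2 CPM. Tamoxifen gave 10.8, 10.1, 9.61 and 8.41 CPM, overlapping the vehicle, and fulvestrant 13.8, 10.9, 6.97 and 20.7 CPM, spread over both. The log2 difference with raloxifene was 0.85 (SE 0.15, edgeR adjusted p 0.041).

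The call depended on the fit. It was kept with the replicate block (adjusted p 0.00313), with the pair of replicates as a term (0.00203), with only the groups compared (0.00276) and without the shallow libraries (0.0335). It was lost when any 1 of the 4 vehicle libraries or raloxifene replicate 1, 2 or 3 was left out, with adjusted p from 0.175 to 0.821, and with DESeq2 (0.565), while the log2 difference stayed between 0.75 and 0.91 in every fit. Without the 2 vehicle libraries with conflicting labels the adjusted p was 0.995. The direct edgeR difference between raloxifene and tamoxifen was 0.80 (adjusted p 0.198). It passed with the replicate block (0.0350), with the pair of replicates as a term (0.0225) and with only the groups compared (0.0471). The difference between fulvestrant and raloxifene was -0.60 (adjusted p 0.964).

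At the site 25.7 kb from MINDY4B (chr3:150844557-150844788), the vehicle libraries were low, at 1.87, 2.57, 2.25 and 1.97 CPM, and estradiol libraries gave 6.71, 9.99, 8.07 and 4.91 CPM. Raloxifene gave 6.07, 5.12, 5.35 and 5.02 CPM, tamoxifen 6.08, 5.20, 3.07 and 2.74 CPM and fulvestrant 4.62, 3.86, 1.47 and 6.90 CPM. Every raloxifene and tamoxifen library exceeded every vehicle library. Log2 differences to the vehicle were 1.34 with raloxifene (SE 0.27, edgeR adjusted p 0.289), 0.96 with tamoxifen (SE 0.29) and 0.76 with fulvestrant (SE 0.32), and none passed in that fit. The raloxifene difference passed with the replicate block (edgeR adjusted p 0.0342), with the pair of replicates as a term (0.0359) and with only the groups compared (0.0450).

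The smallest p with tamoxifen was at the site 226 kb from PREP, a prolyl peptidase gene (chr6:105628507-105628839). Vehicle libraries gave 4.78, 5.92, 4.50 and 4.50 CPM, tamoxifen 2.85, 3.42, 1.60 and 1.52 CPM, raloxifene 3.91, 3.20, 2.90 and 2.83 CPM and fulvestrant 1.69, 4.21, 1.84 and 6.90 CPM. All tamoxifen and raloxifene libraries lay below all vehicle libraries. The log2 difference with tamoxifen was -1.09 (SE 0.27, unadjusted edgeR p 0.000134) and did not pass adjustment.

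Remaining sites in this ranking were 1 inside PPP2R2C, a phosphatase subunit gene, at 5.81 CPM in the vehicle and 9.51 with raloxifene, and 1 lying 448 kb from NYAP2, at 7.43 CPM in the vehicle and 4.75 with tamoxifen. At the TRPC6 group the raloxifene sums were 17.6, 17.3, 19.2 and 18.0 CPM, all below the 4 vehicle sums given above. At the GPR132 group fulvestrant gave 11.1, 11.7, 10.1 and 46.0 CPM, the last from 20 counts in the shallow library. Of the 10 sites near estrogen-induced genes, 6 had a log2 difference below 0 with fulvestrant (median -0.02), 5 with raloxifene (median -0.01) and 7 with tamoxifen (median -0.16).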

How the data were processed

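ATAC-seq libraries of T47D cells were grouped by their titles. Per the submitters' processing notes, the tools were cutadapt 1.8.1 (trimming), Bowtie2 2.4.4 (alignment to hg38) and SAMtools 1.9. No source used here names a peak caller or counting tool, or says how duplicates or the Tn5 offset were treated. The deposited values are raw counts per peak in 1 peak set for all 24 libraries, unnormalized by the authors. Every replicate pair differed by more than counting noise (chi-square/df 1.74 to 3.81).

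CPM used column totals, without scaling factors. All libraries entered 1 edgeR 4.0.16 fit (R 4.3.3; filterByExpr, minimum count 10 and total 15; TMM; quasi-likelihood test, robust, two-sided; adjusted p threshold 0.05), checked on simulated data. The fitted log2 difference weighs libraries by depth and can differ from a ratio of mean CPM; its SE, approximate, was taken as the log2 difference divided by √F. DESeq2 1.42.0, other scalings and filters, replicate terms and leaving out libraries were alternatives. Peak coordinates are as in the deposited names, whether counted from 0 or 1 not being given. Nearest coding genes (by whole interval) came from RefSeq on GRCh38.p14, and sequences from its promoter table, of which 2 members matched.

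Members and gene lists were chosen with earlier results of these data known. Sites were named by rule: the 10 largest estradiol ratios, 5 highest with estradiol, 5 highest and 5 lowest in complete medium, 3 smallest p per antagonist, up to 3 per gene list and those beside each limit. ARF6, PHACTR1, TFF1, NHERF1, KCNK5, ADCY9 and the groups at GPR132 and TRPC6 were named after their values were seen.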

Additional observations from a re-analysis of the deposited data

Results flagged for a closer look

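Of 78 groups of 4 libraries checked (the summed level and 12 sites with values given per library), 3 held a library far from the other 3, where chance gives about 1 in 20. At the MAP1LC3B2 site, estradiol replicate 3 gave 15 CPM against 11.9 to 12.3 CPM in the others. At the CHRNA9 site, fulvestrant replicate 4 gave 4.60 CPM against 0.734 to 1.33 CPM, in the library where 1 count is worth 2.30 CPM. Also at CHRNA9, raloxifene replicate 2 gave 2.56 CPM against 1.00 to 1.08 CPM.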

How the results depend on the processing

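Sites higher in the complete-medium than in the starved vehicle numbered 228 to 246 with 1 library left out, and estradiol calls 260 to 293. Calls between the complete-medium vehicle and estradiol numbered 98 to 124 with 1 library left out, 71 without the vehicle libraries with conflicting labels, 78 within replicates 3 and 4 and 84 by DESeq2, against 133. With 1 library left out the median log2 difference ran from -0.29 to -0.10 for fulvestrant, from -0.19 to -0.04 for tamoxifen and from -0.05 to 0.07 for raloxifene; the fulvestrant median was -0.64 within replicates 3 and 4.

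Replicate numbers are shared between groups. Deviations of same-numbered libraries from their group means correlated weakly and mostly above 0. For fulvestrant and vehicle the correlation was -0.13 for number 2, the lowest, and 0.13 for number 1, the highest. The main fit did not treat them as pairs, and the calls depended on that choice. With the replicate block, sites called and lower numbered 2 for fulvestrant (THSD4, GREB1), of 2 lower among all 156745 tested peaks, and 4 for fulvestrant against raloxifene (MPPED2, GUCY1A2, GREB1, CASTOR2), of 6. Called and higher were 2 for raloxifene (TGIF2, MINDY4B), of 2, and 1 for raloxifene against tamoxifen (TGIF2), of 1. With the replicate pair as a term these were 3 of 4, 4 of 7, 2 of 2 and 1 of 1, and fulvestrant against tamoxifen had 1 (GUCY1A2) of 3 lower. With only the groups compared, raloxifene had 2 of 2 and raloxifene against tamoxifen 1 of 1. Within replicates 1 and 2 fulvestrant had 1 (GREB1) of 1 lower and fulvestrant against tamoxifen 1 (the ATP11B site) of 2. Within replicates 3 and 4, which hold the shallow library, fulvestrant had 4 lower (THSD4, MPPED2 and 2 at NYAP2), where 15 of 160761 tested peaks were lower and 73 higher. Fulvestrant against raloxifene had 4 there (MPPED2, WNK1, NYAP2, CASTOR2), where 20 were lower and 112 higher, and fulvestrant against tamoxifen 1 (NYAP2), where 13 were lower and 268 higher. Raloxifene had 0 within either pair, with total counts, loess offsets, no low-count filter or DESeq2, and without the libraries with conflicting labels. With 1 library left out, raloxifene had 0 to 1 and fulvestrant against raloxifene 0 to 1 (CASTOR2, without fulvestrant replicate 1). In the other alternatives calls against the vehicle stayed at 0 for fulvestrant, and for tamoxifen they were 0 in all. Sites named here that the report does not describe were named after their values were seen. The cause of these shifts was not tested.

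The rule gave 302 to 343 sites with 1 starved library left out, 189 with a starved vehicle limit of 2 CPM, 170 with a log2 ratio of 1.5 and 327 with TMM-scaled CPM, of which 302 were shared. The sign of the vehicle difference turned at GATA3 (0.067 with the replicate block, 0.032 without the conflicting libraries, 0.24 within replicates 1 and 2, 0.13 by DESeq2, and 0.17, 0.018, 0.044 and 0.39 without complete-medium replicate 2 or 3 or starved replicate 1 or 4) and at FUT8 (0.097 within replicates 3 and 4), neither called in any fit. The fits within a pair of replicates and between antagonists were added after seeing the data. The share of sites with an estrogen response element was not run, since it needs a genome sequence. Depth limits single sites most in fulvestrant replicate 4, where 89 sites read 0.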
